A study of Mus musculus with 9 samples.

Results

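The 10 transcripts described here are the messenger RNAs of respiratory chain and ATP synthase subunits that are encoded on mouse mitochondrial DNA and appear in a table of gene counts from adipose tissue. They were chosen by name, as the rows of that table placed on chromosome MT that are called mt-Nd1, mt-Nd2, mt-Nd4, mt-Nd5, mt-Nd6, mt-Co1, mt-Co2, mt-Co3, mt-Atp6 or mt-Cytb. They are 10 of 3958 listed genes and 10 of 13 listed genes of mitochondrial DNA. The other 3 are the ribosomal RNAs mt-Rnr1 and mt-Rnr2 and the transfer RNA mt-Tp. The remaining mitochondrial genes are not analysed here, because the table used lists abundant genes down to a summed count of 8471.

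The mice were male C57BL/6J, sampled at day 21, and their adipose tissue gave 3 groups of 3 libraries each. The groups are CPX (numbers 4, 6 and 8), MPX (numbers 2, 5 and 7) and EA (numbers 5, 7 and 8, with titles that begin APX and the treatment label EA). The series compares a normal diet, a high-fat diet and a high-fat diet with electroacupuncture, which is electrical stimulation through acupuncture needles. The labels do not say which of CPX and MPX had which diet, and they do not name the fat depot, so the prefixes are used here as given. They do not say that the libraries came from separate mice either, so the tests below measure only the spread between these libraries, which may be technical.

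Mitochondrial DNA is a small circle with a heavy and a light strand. Each strand is copied as a long precursor that is cut into separate messenger, ribosomal and transfer RNAs, so that the messengers start from shared precursors and their levels then depend on processing and decay. The proteins form the membrane core of complex I (NADH dehydrogenase), complex III (cytochrome bc1), complex IV (cytochrome c oxidase) and the ATP synthase, and each of these complexes is completed by subunits encoded in the nucleus. White fat has few mitochondria compared with brown fat, and its mitochondrial content is known to vary with diet and with the make-up of the tissue.

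All 10 members are genes of 1 exon. On GRCm38 they lie at chrMT:2751-3707 (mt-Nd1), chrMT:3914-4951 (mt-Nd2), chrMT:5328-6872 (mt-Co1), chrMT:7013-7696 (mt-Co2), chrMT:7927-8607 (mt-Atp6), chrMT:8607-9390 (mt-Co3), chrMT:10167-11544 (mt-Nd4), chrMT:11742-13565 (mt-Nd5) and chrMT:14145-15288 (mt-Cytb) on the plus strand. The gene for mt-Nd6 lies at chrMT:13552-14070 on the minus strand. The positions of all 10 in the table were those of GENCODE M21, from which the sequences below were read. The transcript of mt-Nd6, the one member read from the opposite strand, had 28.1% G and 5.97% C. Its opposite composition shows in the first 90 bases, given here beside those of mt-Cytb with every G in capitals (chrMT:13981-14070, minus strand, and chrMT:14145-14234, plus strand).

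mt-Nd6: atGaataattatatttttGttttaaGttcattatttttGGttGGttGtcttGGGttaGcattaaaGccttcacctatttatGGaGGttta
mt-Cytb: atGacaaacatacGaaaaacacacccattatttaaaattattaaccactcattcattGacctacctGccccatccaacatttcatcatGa

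There are 17 G among the bases shown for mt-Nd6 and 5 among those for mt-Cytb. The ends of mt-Nd5 and mt-Nd6 overlap by 14 bases on opposite strands (chrMT:13552-13565), shown in capitals below in the last 40 bases of each transcript (chrMT:13526-13565, plus strand, and chrMT:13552-13591, minus strand). The use of strand in the counting is not given in the sources used here, so reads of the shared stretch, and of any RNA antisense to either gene, cannot be assigned to a strand.

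mt-Nd5: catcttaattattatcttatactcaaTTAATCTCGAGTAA
mt-Nd6: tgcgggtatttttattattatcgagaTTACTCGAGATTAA

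A second feature of the sequences bears on every level below. Mouse chromosome 1 carries a stretch of mitochondrial DNA inserted in the nuclear genome, annotated as a row of unprocessed pseudogenes on the minus strand. Of the members, 3 have a copy of nearly the whole gene there, identical in every aligned base. Gm28661 (chr1:24614885-24615565) matches 681 of 684 bases of mt-Co2. Gm10925 (chr1:24613974-24614651) matches 678 of 681 bases of mt-Atp6, and Gm28437 (chr1:24613189-24613971) matches 783 of 784 bases of mt-Co3. The last 60 bases of each member are shown with the bases beyond the annotated copy in capitals, each above the end of its copy. The members' stretches are chrMT:7637-7696, chrMT:8548-8607 and chrMT:9331-9390, plus strand, and those of the copies are chr1:24614885-24614941, chr1:24613974-24614030 and chr1:24613189-24613247, minus strand.

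mt-Co2: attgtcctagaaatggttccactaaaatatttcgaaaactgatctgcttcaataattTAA
Gm28661: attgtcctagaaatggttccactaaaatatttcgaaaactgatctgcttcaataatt
mt-Atp6: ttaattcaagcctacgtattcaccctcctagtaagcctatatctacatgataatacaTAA
Gm10925: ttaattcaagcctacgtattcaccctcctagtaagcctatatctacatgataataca
mt-Co3: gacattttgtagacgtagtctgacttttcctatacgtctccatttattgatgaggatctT
Gm28437: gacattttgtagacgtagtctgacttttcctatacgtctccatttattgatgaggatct

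A read from inside these genes has the same letters whether it came from the mitochondrial or the nuclear gene. Partial copies exist for mt-Nd4, whose first 876 of 1378 bases are identical to Gm28439 (chr1:24611535-24612410), and for mt-Co1, whose last 492 of 1545 bases match Gm29216 (chr1:24615706-24616197) with 6 differences. Those differences lie at the start of the copy, and the remaining 479 bases are identical. The stretch is shown with the differing bases in capitals (chrMT:6381-6440, plus strand, and chr1:24616138-24616197, minus strand).

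mt-Co1: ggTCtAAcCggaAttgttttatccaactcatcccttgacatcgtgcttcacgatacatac
Gm29216: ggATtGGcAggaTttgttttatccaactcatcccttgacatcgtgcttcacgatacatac

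Expressed as the share of 100-base windows with an exact match in an annotated nuclear transcript, the members differed widely. The share was 99.5% for mt-Co2, 99.5% for mt-Atp6 and 99.9% for mt-Co3. It was 60.8% for mt-Nd4, 30.8% for mt-Co1 and 3.2% for mt-Nd2. It was 0% for mt-Nd1, mt-Nd5, mt-Nd6 and mt-Cytb. Some shares depended on the window. With 50-base windows they were 51.1% for mt-Co1, 8.19% for mt-Nd2 and 7.61% for mt-Nd5. With 150-base windows they were 23.6% for mt-Co1 and 0% for mt-Nd2 and mt-Nd5. Gm28661, Gm10925 and Gm28437 are listed in the count table with counts of their own. How the counting treated reads that match several places is not given in the sources used here, so the values of mt-Co2, mt-Atp6 and mt-Co3 are uncertain, and those of mt-Nd4 and mt-Co1 in part.

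The listed counts of a library summed to between 12115183 and 14208853. These sums cover listed genes only and are not sequencing depths. The library CPX 4 stood apart from the others in the level of every member, and CPX 6 stood apart in its cell markers. The summed level of 8 adipocyte markers, all of which were listed, was 78082 CPM (counts scaled by the library's listed total times its TMM factor, an estimate of relative composition) in CPX 4, 6519 in CPX 6 and 36009 in CPX 8. It lay between 39092 and 49303 in MPX and between 25531 and 36789 in EA, so that EA was below MPX without overlap. Singly, 6 of the 8 markers were lower in all EA than in all MPX libraries, beside 19% of all listed genes. The summed level of 6 B cell markers, all listed, was 9231 CPM in CPX 6 against 567 in CPX 4 and 1230 in CPX 8. It was 726 to 1505 in MPX and 2117 to 4568 in EA, so that EA and MPX did not overlap. Most of this sum was Cd74, with a mean of 985 CPM in MPX and 2448 in EA. Singly, 6 of the 6 markers were higher in all EA than in all MPX libraries. The share of all listed genes that were higher in this way was not counted, so no background stands beside this count. The median log2 difference of the markers for EA minus MPX was 6.58 (1.31 to 7.25), beside 0.01 over all listed genes. Cd74 was nearly all of the MPX sum, so the large differences of the other markers rest on very low MPX levels. Those markers are among the abundant genes listed through the libraries where they were high. The size of these differences is thus not read as a result. The summed level of 5 macrophage markers, all listed, was 958 to 3644 CPM in CPX, 879 to 2529 in MPX and 1821 to 4570 in EA. For 3 endothelial markers, all listed, the sum was 585 to 957 CPM in CPX, 958 to 1547 in MPX and 658 to 931 in EA. Of these 3, 2 were lower in all EA than in all MPX libraries, beside 19% of all listed genes. Markers of brown or beige fat, skeletal muscle and retina are not among the listed genes (0 of 6, 0 of 6 and 0 of 5). They were looked for because brown fat and muscle are rich in mitochondria and the RNA protocol of the labels names retinas. Fewer cells of a type and less RNA per cell cannot be told apart in such bulk libraries, and the part of cell make-up in the results below was not tested. All comparisons with CPX share the same 3 CPX libraries, and those with EA or MPX share theirs.

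Together the 10 members took 11.4% of the listed counts in CPX 4, 4.05% in CPX 6 and 5.83% in CPX 8. They took 4.19%, 4.46% and 4.22% in MPX 2, MPX 5 and MPX 7, and 5.18%, 3.49% and 3.28% in EA 5, EA 7 and EA 8. CPX 4 was thus far above every other library, and the ranges of the 3 groups overlapped. The group means were 7.10% ± 3.85 in CPX, 4.29% ± 0.147 in MPX and 3.98% ± 1.05 in EA (SD, n = 3 each). The difference between the means was -2.82 percentage points for MPX minus CPX, -3.12 points for EA minus CPX and -0.31 points for EA minus MPX. With 3 libraries against 3, an exact permutation test cannot give a two-sided p below 0.1. Without CPX 4 the difference between MPX and CPX shrank to -0.654 points and that between EA and CPX to -0.959 points. The difference between EA and MPX changed sign without EA 8, to 0.048 points.

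The nuclear-encoded partners of the members gave a steadier comparison. The table lists 64 nuclear genes for subunits of complexes I to IV and the ATP synthase, complex II being the one with no mitochondrially encoded subunit. Their share of the listed counts was 2.40%, 0.953% and 1.16% in CPX 4, CPX 6 and CPX 8. It was 1.43%, 1.30% and 1.42% in MPX and 1.60%, 1.24% and 1.20% in EA, so CPX 4 was again highest and CPX 6 lowest. The members' counts per count of a nuclear subunit were 4.76, 4.25 and 5.04 in the CPX libraries. They were 2.93, 3.44 and 2.96 in the MPX libraries and 3.23, 2.80 and 2.72 in the EA libraries. All 3 CPX libraries therefore lay above all 6 others in this ratio, CPX 4 and CPX 6 included, which within CPX were the highest and the lowest in mitochondrial share and in adipocyte markers. The means were 4.68 ± 0.399 in CPX, 3.11 ± 0.284 in MPX and 2.92 ± 0.272 in EA (SD, n = 3 each), a log2 difference of -0.59 for MPX minus CPX, -0.68 for EA minus CPX and -0.09 for EA minus MPX. This ratio was chosen after the values had been seen, and it is given as a description. With any 1 library left out, the first of these differences stayed between -0.66 and -0.53 and the second between -0.76 and -0.63. Taking mt-Co1 alone gave -0.75 and -0.65, and leaving mt-Co1 out gave -0.47 and -0.71. For single genes, 7.71% of those listed were lower in all MPX than in all CPX libraries, and 5.08% were lower in all EA than in all CPX libraries.

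**Figure D1:**
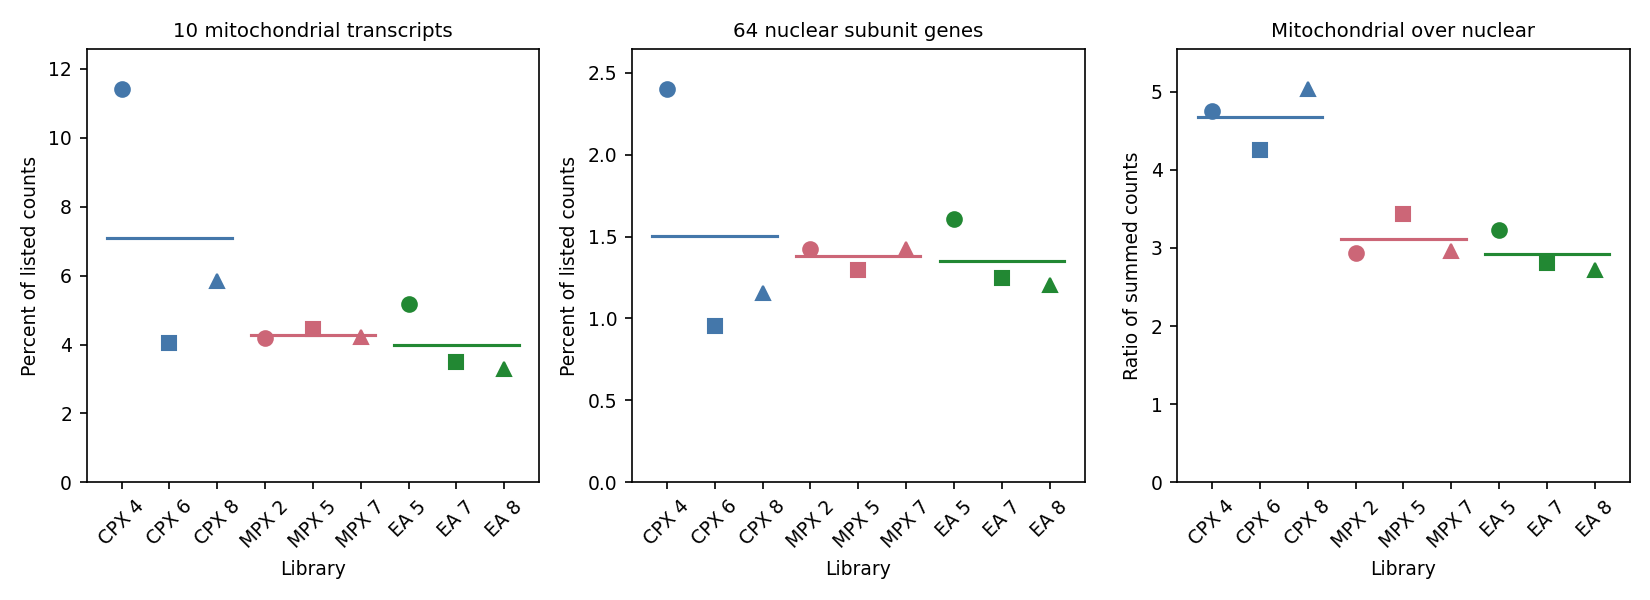
Share of listed counts (percent) of the 10 mitochondrial transcripts (left) and of 64 nuclear subunit genes (middle), and the ratio of their summed counts (right), in each library; points are libraries and lines are group means. CPX 4 is highest in both shares, while in the ratio the 3 CPX libraries lie between 4.25 and 5.04 and the 6 others between 2.72 and 3.44.

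Split by complex, the same ratio put the CPX libraries above all others in each. These ratios are parts of the one above and were likewise chosen after the values had been seen. For complex I, the counts of 5 members per count of 27 nuclear subunits were 6.66, 6.84 and 9.004 in CPX, 5.13, 6.16 and 5.05 in MPX and 4.98, 4.29 and 4.27 in EA. Here the 3 groups did not overlap, with EA lowest. For single genes, 19% of those listed were lower in all EA than in all MPX libraries. For complex III, mt-Cytb had 7.46, 6.17 and 7.45 counts per count of 9 nuclear subunits in CPX, 4.60, 5.32 and 4.56 in MPX and 4.89, 4.37 and 4.10 in EA. For complex IV, the ratio of 3 members to 11 nuclear subunits was 9.10, 10.3 and 11.3 in CPX, 6.08, 6.98 and 6.64 in MPX and 8.37, 6.92 and 6.54 in EA. In complexes III and IV EA and MPX overlapped. The single ATP synthase member, mt-Atp6, carries the uncertainty of its nuclear copy. It had 0.1004, 0.0267 and 0.0246 counts per count of 13 nuclear subunits in CPX, 0.0186, 0.0224 and 0.0172 in MPX and 0.0168, 0.0141 and 0.0109 in EA, with no overlap between the groups.

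Of the nuclear subunits, 0 of 64 passed an adjusted p of 0.05 in any comparison by edgeR's quasi-likelihood test with Benjamini-Hochberg adjustment, and 0, 2 and 0 had an unadjusted p under 0.05 for EA minus MPX, MPX minus CPX and EA minus CPX. Of all listed genes, 5.1%, 13.2% and 2.96% had such an unadjusted p. As 0% of all listed genes passed the adjusted p, counts of 0 here and in the lists below are not particular to them. The median log2 differences of the nuclear subunits were -0.13, -0.37 and -0.55, beside 0.01, -0.11 and -0.09 over all listed genes. Without CPX 4 the last 2 of these medians of the subunits became 0.45 and 0.31. The member medians in the same fits were -0.27, -1.01 and -1.28, and without CPX 4 the last 2 became -0.05 and -0.43. The first was -0.57 without EA 5, -0.13 without EA 7 and -0.16 without EA 8. Of 6 listed factors of mitochondrial transcription, RNA processing and translation, 0 passed the threshold. Lrpprc, which binds and stabilises mitochondrial messengers, had a log2 difference of -0.50 ± 0.186 (SE) for MPX minus CPX, 0.38 ± 0.186 for EA minus MPX and -0.11 ± 0.186 for EA minus CPX (adjusted p = 0.362, 0.775 and 0.997, edgeR). The difference was negative for 1 of the 6 factors for EA minus MPX, 6 for MPX minus CPX and 3 for EA minus CPX. Of all listed genes, 48.6%, 59.3% and 61% were negative in these comparisons. Gabpa and Prkaa1, a transcription factor and a kinase subunit tied to mitochondrial biogenesis, were the listed genes of their list, and 0 of 2 passed. Gabpa differed by 0.07 and Prkaa1 by -0.39 for EA minus MPX.

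Among the members themselves, levels differed widely. Per kilobase of gene, with CPM scaled by TMM factors, mt-Co1 was highest at 15166 ± 10832 CPM per kilobase (SD, n = 9 libraries). It encodes the catalytic core of cytochrome c oxidase and took 43.1% of all member counts. It was followed by mt-Cytb, the core of complex III, at 8734 ± 6389, with 18.4% of member counts. The complex I messengers came next in the order mt-Nd1 (5649), mt-Nd2 (3975), mt-Nd4 (3656), mt-Nd5 (2400) and mt-Nd6 (2381), all in CPM per kilobase. The lowest were mt-Co2 (478), mt-Atp6 (283) and mt-Co3 (225), which encode another core subunit of cytochrome c oxidase, the proton channel subunit of the ATP synthase and the third core subunit of the oxidase. The SDs are large because CPX 4 is included, and within libraries the order was steadier. Each of mt-Co1, mt-Cytb, mt-Nd1, mt-Nd4, mt-Nd6 and mt-Co2 was above the next member in 9 of 9 libraries. The order of neighbours was less firm for mt-Nd2 over mt-Nd4 (7 of 9), mt-Nd5 over mt-Nd6 (6 of 9) and mt-Atp6 over mt-Co3 (7 of 9). By summed count over all libraries, mt-Co1 ranked 2 and mt-Cytb 6 among the 3958 genes, whereas mt-Co2 ranked 605, mt-Atp6 1315 and mt-Co3 1447.

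**Figure D2:**
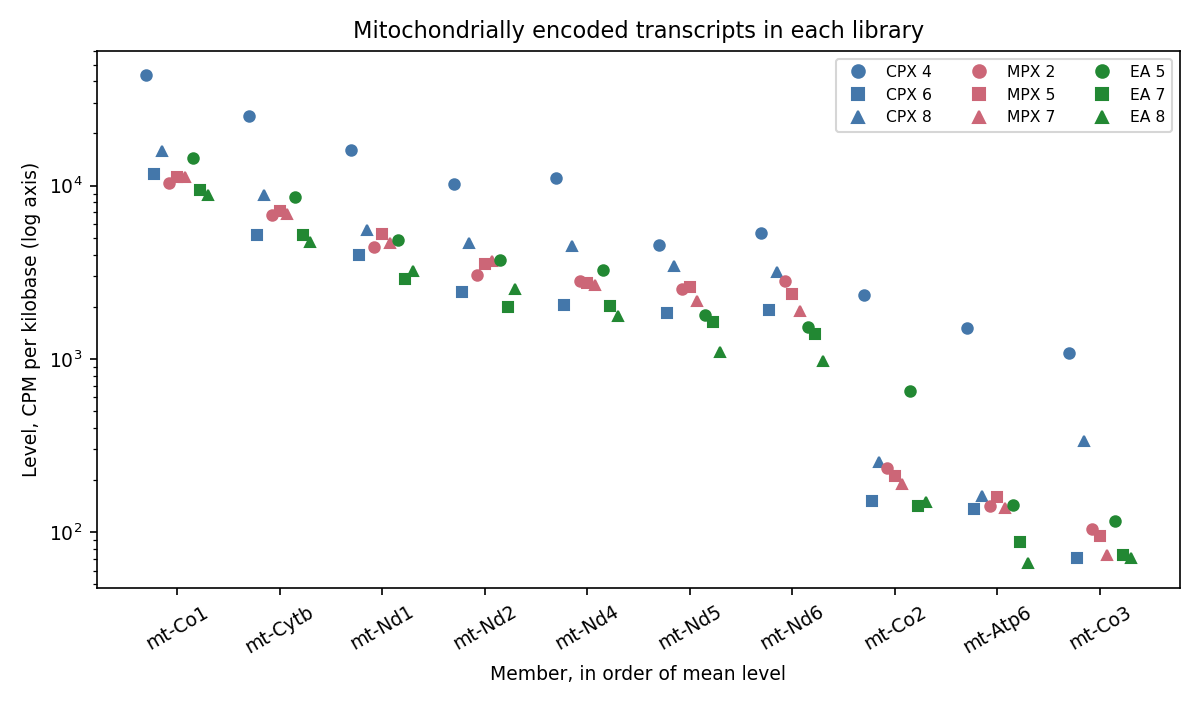
Level of each member in CPM per kilobase (log axis) in each of 9 libraries, with members in order of their mean; colours are groups and shapes are libraries within a group. CPX 4 is the top point for every member, and mt-Co2, mt-Atp6 and mt-Co3 lie below the other 7.

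The 3 lowest members are the 3 with a nuclear copy of nearly the whole gene. Per length, mt-Co1 exceeded mt-Co2 by 18.7 to 76.8 times, mt-Co3 by 39.98 to 163 times and mt-Atp6 by 28.7 to 134 times over the 9 libraries. The copies had counts similar to those of the genes they match. In the 9 libraries mt-Co2 held 52.5% to 78.0% of the counts of mt-Co2 and Gm28661 together, mt-Atp6 held 38.0% to 66.6% of its pair with Gm10925, and mt-Co3 held 52.0% to 84.4% of its pair with Gm28437. Adding the copies' counts left the low level of these members in place. On the log2 scale, the mean of the 3 members minus that of the 6 other heavy-strand members was -6.00 to -4.05, and -5.28 to -3.50 with the copies added. Whether reads matching several places were left out of the counts was not tested, since the reads are not used here.

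**Figure D3:**
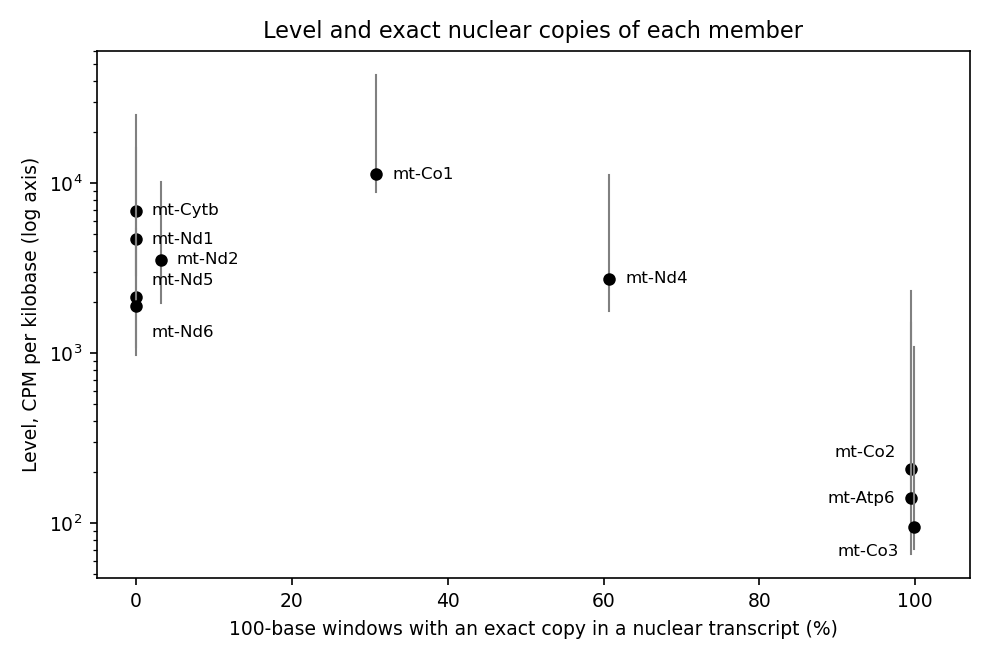
Median level over 9 libraries in CPM per kilobase (log axis; grey lines run from the lowest to the highest library) against the percent of 100-base windows of each member with an exact match in an annotated nuclear transcript. The 3 members at 99.5% or more are lowest, while mt-Nd4 at 60.8% and mt-Co1 at 30.8% lie among the members with few or no such windows.

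These 3 members also separated CPX 4 further from the rest. The CPM of mt-Co2 was 1590 in CPX 4, 103 in CPX 6, 174 in CPX 8, 160, 143 and 130 in MPX, and 444, 96.9 and 102 in EA. CPX 4 and EA 5 were the high libraries. For mt-Atp6 the values were 1032, 93.0 and 111 in CPX, 95.8, 108 and 93.6 in MPX and 97.6, 60 and 45.02 in EA. For mt-Co3 they were 852, 55.9 and 263 in CPX, 81.8, 74.4 and 57.6 in MPX and 90.9, 58.0 and 55.7 in EA. CPX 4 was the outlying library for each, with CPX 8 second for mt-Co3. The level in CPX 4 was 11.6 times the median of the 8 other libraries for mt-Co2, 10.9 times for mt-Atp6 and 12.9 times for mt-Co3. For the 7 other members it was between 2.29 times (mt-Nd5) and 4.11 times (mt-Nd4). The ribosomal RNAs lay between, at 6.44 times for mt-Rnr1 and 5.14 times for mt-Rnr2, and the nuclear copies stood at 7.04 (Gm28661), 8.44 (Gm10925) and 10.4 (Gm28437) times. The share of member counts held by mt-Co2, mt-Atp6 and mt-Co3 together was 2.29% in CPX 4 and 1.27% in EA 5, against 0.664% to 0.921% in the other libraries. In EA 5 the excess was in mt-Co2, at 4.46 times the mean of EA 7 and EA 8, while mt-Atp6 and mt-Co3 were 1.86 and 1.60 times that mean. Gm28661, the copy of mt-Co2, was 1.67 times it.

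The complex I messengers were compared next. mt-Nd6 encodes a membrane subunit of complex I and is the only member transcribed from the other strand. Its CPM was 2783, 988 and 1656 in CPX 4, CPX 6 and CPX 8, then 1466, 1223 and 986 in MPX and 795, 719 and 505 in EA. Every EA library was below every MPX and every CPX library. The log2 difference was -0.86 ± 0.429 (SE) for EA minus MPX (adjusted p = 0.775, edgeR) and -1.43 ± 0.434 for EA minus CPX (adjusted p = 0.997, edgeR). For MPX minus CPX it was -0.56 ± 0.427 (adjusted p = 0.528, edgeR), those groups overlapped, and the value was -0.079 without CPX 4.

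mt-Nd5, which encodes a proton-pumping subunit of complex I and overlaps mt-Nd6 by 14 bases on the opposite strand, had the same order of groups. Its CPM was 8311, 3349 and 6283 in CPX, 4590, 4733 and 3916 in MPX and 3265, 2960 and 1992 in EA. EA lay below MPX and CPX with no overlap, by -0.69 ± 0.430 (adjusted p = 0.775, edgeR) and -1.13 ± 0.433 (adjusted p = 0.997, edgeR) on the log2 scale. For EA minus MPX, 2 of 10 members were thus lower without overlap, where 19% of all listed genes were, a share close to that of the members. For EA minus CPX the count was also 2 of 10, beside 5.08% of all genes. For MPX minus CPX, mt-Co1 was the 1 member lower without overlap, beside 7.71% of all genes.

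The other members of complex I varied with the library more than with the group. The CPM of mt-Nd1 was 15314, 3817 and 5329 in CPX, 4220, 5037 and 4467 in MPX and 4618, 2775 and 3076 in EA. That of mt-Nd2 was 10547, 2533 and 4858 in CPX, 3149, 3682 and 3794 in MPX and 3889, 2059 and 2624 in EA, and that of mt-Nd4 was 15310, 2826 and 6206 in CPX, 3871, 3770 and 3680 in MPX and 4464, 2779 and 2438 in EA. CPX 6 was low and CPX 4 high for each of these 3, so that CPX spanned the MPX range. Their log2 differences for EA minus MPX were -0.39 (mt-Nd1), -0.31 (mt-Nd2) and -0.23 (mt-Nd4), each smaller than its SE of 0.540 to 0.597.

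Ratios between members remove what all of them share in a library. Per 100 counts of mt-Cytb there were 9.61, 16.6 and 16.4 counts of mt-Nd6 in CPX, 19.0, 14.9 and 12.5 in MPX and 8.09, 12.2 and 9.38 in EA. For mt-Nd5 the values were 28.7, 56.3 and 62.2 in CPX, 59.5, 57.7 and 49.8 in MPX and 33.2, 50.1 and 37.0 in EA. CPX 4, EA 5 and EA 8 were the 3 lowest libraries in both ratios. In contrast, mt-Nd6 per 100 counts of mt-Nd5 stayed between 24.3 and 33.5 in all 9 libraries. These genes lie on opposite strands, but the use of strand in the counting is not given. Reads of RNA antisense to either gene cannot be told from reads of its messenger. Whether this ratio compares messengers of opposite strands was thus not tested, and the same limit holds for every ratio with mt-Nd6. The corresponding range of mt-Nd4 per 100 counts of mt-Cytb was 45.3 to 61.4, that of mt-Nd1 47.0 to 64.1 and that of mt-Nd2 34.8 to 48.8.

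**Figure D4:**
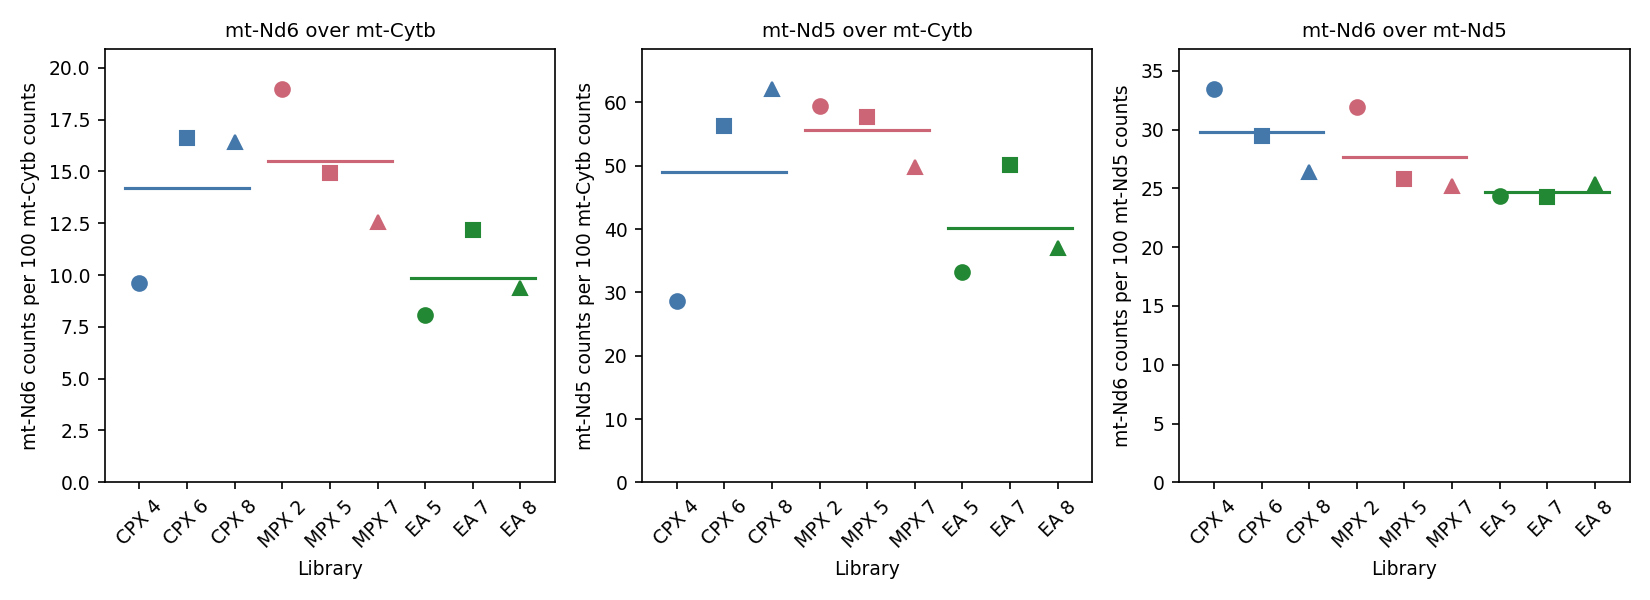
Counts of mt-Nd6 and of mt-Nd5 per 100 counts of mt-Cytb, and of mt-Nd6 per 100 counts of mt-Nd5, in each library; points are libraries and lines are group means. The libraries CPX 4, EA 5 and EA 8 are lowest in the first 2 ratios, while the third stays between 24.3 and 33.5.

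Set against the mean log2 count of the 9 heavy-strand members, mt-Nd6 was at -1.38, -0.28 and -0.42 in CPX, -0.03, -0.35 and -0.53 in MPX and -1.20, -0.53 and -0.94 in EA. The difference between EA and MPX was -0.59 (exact two-sided permutation p = 0.2, adjusted p = 0.6 over 3 comparisons). It was 0.39 for MPX minus CPX (exact p = 0.5, adjusted p = 0.7) and -0.19 for EA minus CPX (exact p = 0.7, adjusted p = 0.7). Leaving out CPX 6 moved the last to 0.01. Against the 6 heavy-strand members without a whole-gene copy, the differences were -0.53, 0.16 and -0.37 (exact permutation p = 0.2, 0.6 and 0.2).

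mt-Co1 and mt-Cytb made up most of the members' counts. The CPM of mt-Co1 was 67096, 17959 and 24469 in CPX, 15996, 17383 and 17435 in MPX and 22321, 14555 and 13675 in EA, and that of mt-Cytb was 28971, 5953 and 10103 in CPX, 7718, 8200 and 7860 in MPX and 9830, 5909 and 5381 in EA. In CPM, EA spanned MPX for both. mt-Co1 differed between EA and MPX by -0.01 ± 0.566 and mt-Cytb by -0.17 ± 0.604 on the log2 scale (adjusted p = 0.998 and 0.935, edgeR). The sign of the former depended on the scaling, at 0.017 with upper quartile factors and 0.085 with none. As a share of member counts, mt-Co1 was 44.2%, 47.7% and 41.2% in CPX, 38.7%, 39.2% and 41.1% in MPX and 44.8%, 45.5% and 45.7% in EA. All MPX libraries lay below all others. The share was 5.70 percentage points higher in EA than in MPX and differed by -4.68 points for MPX minus CPX, each at the smallest exact two-sided permutation p the design allows (p = 0.1, adjusted p = 0.15 over 3 comparisons). With 1 library left out these differences ranged from 5.21 to 6.42 points and from -6.27 to -3.02 points, the last without CPX 6. The share of mt-Co1 was not a planned comparison, and its adjustment covers 1 of 10 members. On the log2 scale, centred on the mean of the 10 members, mt-Co1 differed by 0.30 for EA minus MPX (exact permutation p = 0.1, adjusted p = 0.5 over 30 comparisons). It differed by -0.06 for MPX minus CPX (exact permutation p = 0.9), so the lower share in MPX than in CPX did not hold on that scale. Centred on the 7 members without a whole-gene copy, the difference for MPX minus CPX was -0.28 (exact permutation p = 0.2). Centred on all 10, mt-Cytb also did not overlap in any comparison, nor did mt-Atp6 for EA minus MPX (exact permutation p = 0.1, adjusted p = 0.5 each). Centred on the 7 members, mt-Cytb stayed apart only for EA minus MPX (0.19, exact permutation p = 0.1). There the groups overlapped for MPX minus CPX (-0.01) and for EA minus CPX (0.18, exact permutation p = 0.3). Of 30 member and contrast pairs in the composition of the 10 members, 0 had an adjusted p under 0.05, which this design cannot reach.

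Across the whole table, 0 of 10 members passed an adjusted p of 0.05 by edgeR in any of the 3 comparisons, as did 0% of all listed genes. With 1 library left out the members' count stayed at 0, while edgeR called 168 of 3958 genes for MPX minus CPX without CPX 8, and 23 for EA minus MPX and 12 for EA minus CPX without CPX 6. The log2 difference was negative for 9 of 10 members for EA minus MPX, beside 48.6% of all genes, for 10 of 10 for MPX minus CPX, beside 59.3%, and for 10 of 10 for EA minus CPX, beside 61%. By unadjusted p under 0.05, 0 of 10 members passed for EA minus MPX, beside 5.1% of all genes. In that comparison 1 did without CPX 4 and 2 without CPX 6, where 412 and 786 of 3958 genes passed. For MPX minus CPX 2 of 10 did, mt-Co3 and mt-Atp6, beside 13.2%. For EA minus CPX 4 of 10 did, mt-Nd6, mt-Co3, mt-Atp6 and mt-Nd5, beside 2.96%. These counts rested on single libraries. For MPX minus CPX the count was 0 without CPX 4 or MPX 7, where 927 and 225 of 3958 genes passed. It was 9 without CPX 6 and 2 without CPX 8, where 560 and 943 genes did. Without any other library it was 1, where 158 to 424 genes did. For EA minus CPX the count was 1 without CPX 4, 2 without EA 7 or EA 8 and 9 without CPX 6. In these fits 153, 36, 42 and 927 of 3958 genes passed. For EA minus CPX the largest log2 differences were those of mt-Atp6 (-2.61 ± 0.891) and mt-Co3 (-2.52 ± 0.803), each with an adjusted p of 0.997 by edgeR, and without CPX 4 they were -0.59 and -1.22. For MPX minus CPX they were those of mt-Co3 (-2.45 ± 0.801, adjusted p = 0.362), mt-Co2 (-2.11 ± 1.05, adjusted p = 0.405) and mt-Atp6 (-2.05 ± 0.873, adjusted p = 0.374) by edgeR. Without CPX 4 these were -1.13, 0.09 and -0.0016. Likewise mt-Nd1 and mt-Cytb, at -0.83 and -0.92 for MPX minus CPX, were at 0.03 and 0.01 without CPX 4. DESeq2 gave no p for mt-Atp6. Of the 9 other members it called 1 for MPX minus CPX, mt-Co3 (adjusted p = 0.0227), where it called 5.1% of the genes it gave a p. For the other 2 comparisons it called 0 of 9, where it called 1.24% (EA minus MPX) and 0.127% (EA minus CPX) of the genes. The value of mt-Co2 for EA minus MPX, 0.57 ± 1.01 (adjusted p = 0.863, edgeR), rested on EA 5 and was -0.54 without it. With only the EA and MPX libraries in the fit, 84 of 3958 genes and 0 of 10 members were called, and 1271 genes and 2 members had an unadjusted p under 0.05. The smallest adjusted p of a member was 0.0884 there, that of mt-Nd6 at -0.89 (edgeR).

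By likeness to the members' mean log2 level over 9 libraries, the closest listed genes that are not on mitochondrial DNA were Ndufs4 (r = 0.99), a nuclear subunit of complex I, the copy Gm28661 (0.99), Faf1 (0.98), the copy Gm10925 (0.97), Tkt (0.97), the transketolase of the pentose phosphate pathway, and Glrx3 (0.97). The least alike were Prrc2a (-0.99), Snrnp70 (-0.99), a protein of the splicing machinery, and Pcnx3 (-0.98). All these points share libraries and scaling, CPX 4 sets most of their range, and without it the values were 0.85 to 0.96 and -0.95 to -0.91.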

How the data were processed

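The libraries were made with a TruSeq RNA kit, per the labels' protocols, and HISAT2 2.0.5 and the build mm10 are named, per the submitters' processing notes. No source used here gives the counter, annotation, strand setting or handling of multiply matching reads. The authors' deposited table holds whole-number counts per gene in 3958 rows. Of these, 1 row was incomplete, but its counts were present and it was kept. All 9 libraries were fitted together with edgeR 4.0.16 (TMM, filterByExpr, robust quasi-likelihood test, Benjamini-Hochberg adjustment over all genes), tested on simulated data, in R 4.3.3. DESeq2 1.42.0 and limma-voom 3.58.1 were alternatives. No 2 libraries of a group agreed within sampling noise (lowest chi-square per degree of freedom 71.5). Ratios were taken from counts and compared by exact permutation in scipy 1.17.1, with no p for sums over the members. Exact matches were sought in GENCODE M21 transcripts. All 10 members are named, together with up to 4 genes per related list by smallest p and the 6 most and 3 least alike genes. The members, lists and rules were chosen with earlier results of these data known.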

Additional observations from a re-analysis of the deposited data

How the results depend on the processing

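The calls of 0 of 10 members held in edgeR under every scaling, filter and left-out library tried, although edgeR called 168 genes without CPX 8 (MPX minus CPX), 23 and 12 without CPX 6 (EA minus MPX and EA minus CPX) and 84 with only EA and MPX fitted, while DESeq2 called 1 member for MPX minus CPX and 1 gene of the related lists, where edgeR without single libraries called 0 to 1 such genes. The differences in summed share ranged, with 1 library left out, from -0.906 to 0.048 points (EA minus MPX), -4.34 to -0.654 (MPX minus CPX) and -4.65 to -0.959 (EA minus CPX). Those of mt-Nd6 against the heavy-strand members ranged from -0.77 to -0.43, 0.049 to 0.60 and -0.54 to 0.012 (log2). Those of the member to nuclear ratio ranged from -0.17 to -0.019, -0.66 to -0.53 and -0.76 to -0.63, and with mt-Co1 alone EA minus MPX was 0.10. Signs of small differences turned for EA minus MPX: mt-Co1 (0.017 with upper quartile factors, 0.085 without factors, -0.26 to 0.12 with 1 library left out), mt-Co2 (-0.54 to 0.92) and mt-Co3 (0.026 without factors, 0.21 summed with its copy, -0.33 to 0.063). Left-out libraries gave -1.18 to 0.034 (mt-Nd1), -2.61 to 0.091 (mt-Co2) and -1.30 to 0.014 (mt-Cytb) for MPX minus CPX and -2.64 to 0.64 (mt-Co2) for EA minus CPX. Without CPX 4 and CPX 6, mt-Co2 was at 0.30 for EA minus CPX, and the nuclear subunit medians were 0.28 (MPX minus CPX) and 0.11 (EA minus CPX), while with single libraries left out they ranged from -0.67 to 0.45 and -0.89 to 0.31, the high ends without CPX 4. The 3 low members against the other heavy-strand members ranged from -0.027 to 0.27 (EA minus MPX) and -0.89 to 0.0031 (EA minus CPX). The share of mt-Co1 for EA minus CPX ranged from -0.571 to 2.68 points. Leaving out scaling factors moved the median of all genes from -0.09 to 0.10 for EA minus CPX. EA and MPX share the numbers 5 and 7, but deviations of same-numbered libraries correlated at 0.017 and 0.143, against 0.23 and 0.41 for the others, so the numbers were not taken as pairs. With the replicate block, 6 genes and 0 members were called, mt-Co1 was at 0.050 and mt-Co3 at 0.15 for EA minus MPX. No paired analysis was possible for the comparisons with CPX because they share fewer than 2 numbers. Alternatives with nuclear copies, nuclear subunits or without both CPX libraries were chosen after seeing the data. The spread between 3 libraries per group limits precision. From edgeR's common dispersion it was a coefficient of variation of 40.2%, which may be technical in part or whole.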
